A study of Populus alba x Populus glandulosa with 18 samples.

Results

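Kinesins, tubulins and the proteins that bind microtubules were examined in stems of *PagDET2*-OE poplar. Members were chosen by a rule on annotation, set with earlier results of these data known. The rule took every gene model whose description names a kinesin, a tubulin or a microtubule. Of 42950 gene models, 119 met this rule. They comprised 52 kinesin genes, 34 tubulin genes and 33 genes of associated proteins. The tubulin genes were 9 alpha, 21 beta and 1 gamma tubulin gene and 3 *FTSZ2* genes. The associated proteins were 15 MAP65, 7 MAP70, 5 tubulin cofactors, 2 subunits of the gamma-tubulin complex and 4 others. Of the 119 genes, 10 had no count in any library (4 kinesins, 4 beta tubulins, 1 alpha tubulin and 1 MAP65), and 102 passed the filter on low counts in at least 1 domain.

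*PagDET2*-OE lines are hybrid poplar 84K (*Populus alba* × *P. glandulosa*) that carry the coding sequence of *PagDET2* under the 35S promoter, which is active in most plant cells. *DET2* encodes a steroid reductase of brassinosteroid synthesis. The reference was wild-type 84K, which is given as untreated, and trees of both genotypes were 2 months old and grown in a greenhouse under long days. RNA was sequenced from 3 domains, and there were 3 replicates of each genotype in each domain, so 6 groups and 18 libraries in all. PS is the primary stem, which pooled the shoot apex with the young internodes and is labelled shoot apical meristem. BA is the bark of older internodes, labelled cambium, with differentiating phloem and cambial cells. XY is the surface of the wood of these internodes, labelled xylem. The labels do not say which transgenic line a library came from, and effects of a single line cannot be told apart from that of overexpression. By the methods 3 trees were used, but nothing ties a library to its tree, and a tree may have given a library of each domain.

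Microtubules are hollow filaments built from dimers of alpha and beta tubulin, and complexes that contain gamma tubulin start new ones. Kinesins are motor proteins that move along microtubules, cross-link them or change their length. In dividing plant cells, kinesins and MAP65 proteins build the spindle and then the phragmoplast, the microtubule array that lays down the new cell wall. In differentiating wood cells, the cortical array under the plasma membrane guides cellulose synthases, and MAP70 and MAP65 proteins shape that array in *Arabidopsis*.

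The libraries held 7983668 to 12052409 counts (median 9625227), so that 3 counts, the bound that a count of 0 allows, were 0.249 to 0.376 CPM (the count scaled to a common library total). *DET2* had 1738 to 3139 FPKM (fragments per kilobase of transcript, scaled to the mapped total) in the 9 *PagDET2*-OE libraries, against 5.02 to 10.1 FPKM in the 9 84K libraries. Within every group, replicate 3 stood apart: chi-square per degree of freedom over genes was 4 to 6.11 for pairs with replicate 3 and 2.16 to 2.49 for replicates 1 and 2. The domains were checked against marker lists, in CPM on 1 scale for all 18 libraries. The 54 genes of the secondary wall summed to 31890 to 34490 CPM in XY of *PagDET2*-OE and 27620 to 29120 CPM in XY of 84K, and to at most 1268 CPM in each library of BA and PS. The 20 phloem genes summed to 1445 to 1514 CPM in BA of *PagDET2*-OE and 1401 to 1450 CPM in BA of 84K, but also to 1032 to 1185 CPM in XY. The 19 cambium genes did not separate BA from XY: in 84K they summed to 2599 to 2676 CPM in BA and 2572 to 2692 CPM in XY. The 34 shoot apex genes were not highest in PS: they summed to 369.7 to 392.1 CPM there and to 613.2 to 642 CPM in BA. In a check that was not planned, 1 copy of *CLV1*, a receptor kinase of meristems, was left out because it was the most abundant. Without it, the sums in *PagDET2*-OE were 351.2 to 374 CPM in PS and 313.7 to 321.1 CPM in BA, and those in 84K 360.9 to 368.1 CPM in PS and 349.1 to 354.9 CPM in BA. The 24 genes of epidermis and cuticle summed to 451.2 to 485.8 CPM in PS of *PagDET2*-OE and 414.4 to 428.6 CPM in PS of 84K, and to at most 26.49 CPM in BA.

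The subgroups differed in level and in domain. Summed over the 34 genes, tubulins had 12870, 12950 and 14130 FPKM in XY of *PagDET2*-OE, against 12200, 12280 and 13100 FPKM in XY of 84K. In BA the sums were 3180, 3215 and 3348 FPKM in *PagDET2*-OE and 3002, 3014 and 3192 FPKM in 84K. In both domains replicate 3 was the highest library of each genotype. Tubulin transcripts thus took 2.43% to 2.78% of the counts of an XY library and 0.536% to 0.589% of those of a BA library. Kinesins summed to 781, 776 and 904 FPKM in BA of *PagDET2*-OE, against 626, 629 and 649.8 FPKM in BA of 84K, and these groups did not overlap. In PS the kinesin sums overlapped, with 716 to 762 FPKM in *PagDET2*-OE and 701 to 756 FPKM in 84K. In XY the kinesin sums were highest, with 1080 to 1089 FPKM in *PagDET2*-OE and 1037 to 1070 FPKM in 84K, and did not overlap. FPKM are scaled by library totals, and TMM (the trimmed mean of M values, a scaling that assumes that most genes do not change) raised XY against BA of 84K by a further 0.57 on the log2 scale.

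**Figure D1:**
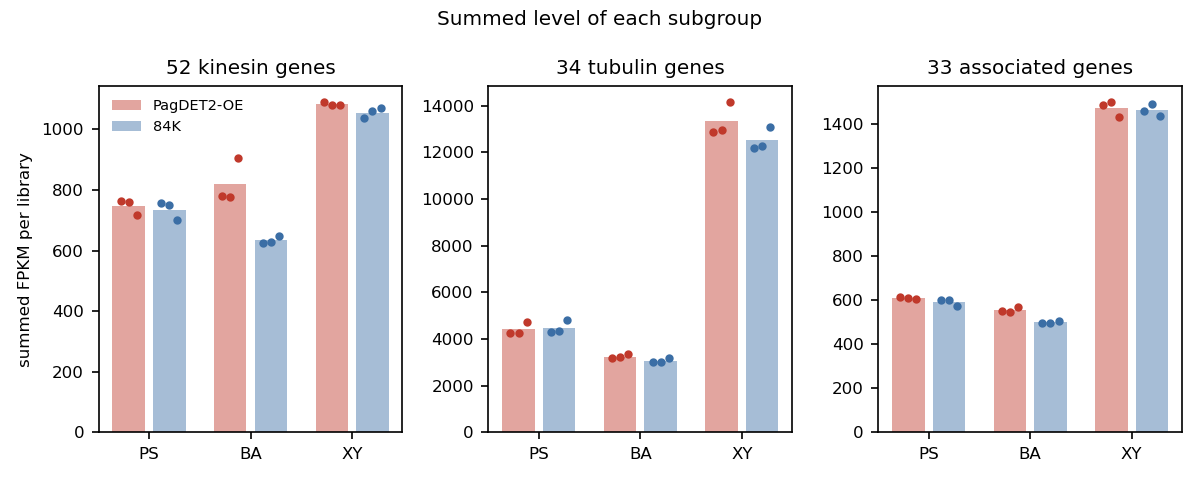
Summed FPKM per library (y axis) of the 52 kinesin, 34 tubulin and 33 associated genes in PS, BA and XY (x axis) of *PagDET2*-OE lines and 84K; points are libraries in the order of replicates 1 to 3 and bars are means (n = 3). The kinesin sums of BA lie between 776 and 904 FPKM in *PagDET2*-OE lines, above the 626 to 649.8 FPKM of 84K.

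In 84K, the question of where the members act without the transgene was addressed by comparing the 3 domains in 1 edgeR fit of the 9 wild-type libraries, where a call needs both an adjusted p of 0.05 or less and a 2-fold difference. Of 102 members tested, 35 were higher and 31 lower in XY than in BA, where 16.0% of all genes tested were higher and 21.7% lower. Tubulins leaned toward XY, with 15 of 29 higher and 3 lower. Kinesins were split, with 16 of 46 higher and 22 lower, although their summed FPKM was higher in XY than in BA. With library totals in place of TMM, the split over all members was 29 higher and 41 lower.

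The members with the largest change toward XY were a set of genes with far lower levels in BA and PS than in XY. *MAP70-5*, which in *Arabidopsis* shapes the secondary wall of vessel cells, was present in 2 abundant copies. Potri.016G006900 had 273, 278 and 256.5 FPKM in XY of 84K, against 1.96, 1.12 and 1.35 FPKM in BA (log2 fold change 8.10, SE 0.11, adjusted p = 7.94e-21 by edgeR). Its partner Potri.006G018000 had 289.8, 284 and 263 FPKM in XY and 3.61, 4.08 and 3.62 FPKM in BA. The beta tubulin *TUB6* copy Potri.001G104600 had 419, 416 and 400.0 FPKM in XY and 3.08, 2.69 and 2.68 FPKM in BA (log2 fold change 7.77, SE 0.07, adjusted p = 2.08e-23). The *TUB8* copy Potri.001G106100 had 419, 425 and 408 FPKM in XY, against 9.16, 7.83 and 8.96 FPKM in BA. Both copies of *MAP65-8* did the same, with means of 381 FPKM for Potri.003G173300 and 216 FPKM for Potri.001G055100 in XY, against 12.6 and 6.41 FPKM in BA. In every one of these genes the 3 XY libraries lay far above the BA libraries.

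Among the members that were lower in XY, the named ones were 2 kinesins, 1 *MAP65-3* and 1 alpha tubulin. *ATK1*, a minus-end directed kinesin of the spindle in *Arabidopsis*, had 2 copies, and Potri.011G031200 had 0.323, 0.343 and 0.034 FPKM in XY of 84K, against 3.24, 3.57 and 4.08 FPKM in BA (log2 fold change −3.48, SE 0.34, adjusted p = 3.46e-08 by edgeR). *MAP65-3* Potri.014G070100, whose *Arabidopsis* counterpart bundles microtubules in the middle of the phragmoplast, had 1.22, 2.11 and 1.63 FPKM in XY and 12.4, 12.3 and 13.2 FPKM in BA. The *TUA6* copy Potri.017G081000 had 19.2, 17.9 and 13.96 FPKM in XY, against 146, 141 and 137 FPKM in BA. The other *TUA6* copy, Potri.001G289500, went the opposite way, with a mean of 541.5 ± 32.8 FPKM in XY and 142 ± 5.09 FPKM in BA (SD, n = 3 each). The other kinesin, Potri.006G085300, had a log2 fold change of −2.45.

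PS was compared with both other domains of 84K. Against BA, 21 of 102 members were higher in PS and 9 lower (14.7% and 14% of all genes tested). Against XY, 37 were higher in PS and 34 lower (26.8% and 19.3%). Library totals gave 49 higher and 26 lower in PS than in XY. A further *TUB6* copy, Potri.003G126800, had 51.4, 54.1 and 44.9 FPKM in PS and 2.84, 2.48 and 1.77 FPKM in BA (log2 fold change 4.42, SE 0.12), and 79.7, 80.2 and 78.0 FPKM in XY. *KCBP* Potri.001G455300, a calmodulin-binding kinesin needed for the branching of leaf hairs in *Arabidopsis*, had a mean of 48.9 FPKM in PS and 14.98 FPKM in BA. The kinesins with the largest change toward BA were *ATK4* Potri.013G011500 and the *KP1* copies Potri.001G467600 and Potri.011G165200, whose log2 fold changes of PS over BA were −1.83 (SE 0.13), −1.78 (SE 0.08) and −1.55 (SE 0.09). Toward PS against XY, the *ATK1* copies Potri.011G031200 and Potri.004G031600 changed most, with log2 fold changes of 4.33 (SE 0.32) and 3.44 (SE 0.15), followed by the kinesins Potri.006G085300 (3.42) and Potri.015G146000 (3.06).

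Levels per length gave the leading members of each subgroup over the 18 libraries. *TUA4* Potri.009G085100 and *TUA2* Potri.002G111900 led the tubulins, with means of 1920 and 1848 FPKM. *TUA2* had 5193 FPKM in XY of 84K, 286 FPKM in BA and 150.5 FPKM in PS, while *TUA4* was above 870 FPKM on average in each of them. The most abundant kinesins were Potri.018G079800 (98.4 FPKM), *ATK3* Potri.001G416300 (83.2 FPKM) and Potri.004G161100 (78.6 FPKM). Tubulin copies may be alike in sequence, which was not analysed here. How fragments that match several copies were assigned is not given in the sources used here, so the share of a single copy is uncertain.

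The genotypes were then compared within each domain by edgeR (quasi-likelihood test, p adjusted by Benjamini-Hochberg across the genes that passed the filter), where genes with an adjusted p of 0.05 or less are called and a DEG is a called gene with at least a 2-fold change. In bulk tissue, more cells of a type and more RNA per cell cannot be told apart. In PS, 28 of 102 members tested rose in *PagDET2*-OE and 4 fell, against 8.08% and 6.90% of all genes tested. In BA, 44 of 101 rose and 2 fell, against 6.19% and 5.34%. In XY, 27 of 97 rose and 12 fell, against 10% and 9.34%. Leaving out replicate 1 of 84K gave 18 that rose in PS, leaving out replicate 2 of 84K gave 28 in BA, and leaving out replicate 1 or 2 of *PagDET2*-OE gave 6 that fell in XY. The 3 domains differed in which subgroup carried the calls, with kinesins in BA and tubulins in XY. The median log2 fold change over all genes tested was 0 in each domain.

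**Figure D2:**
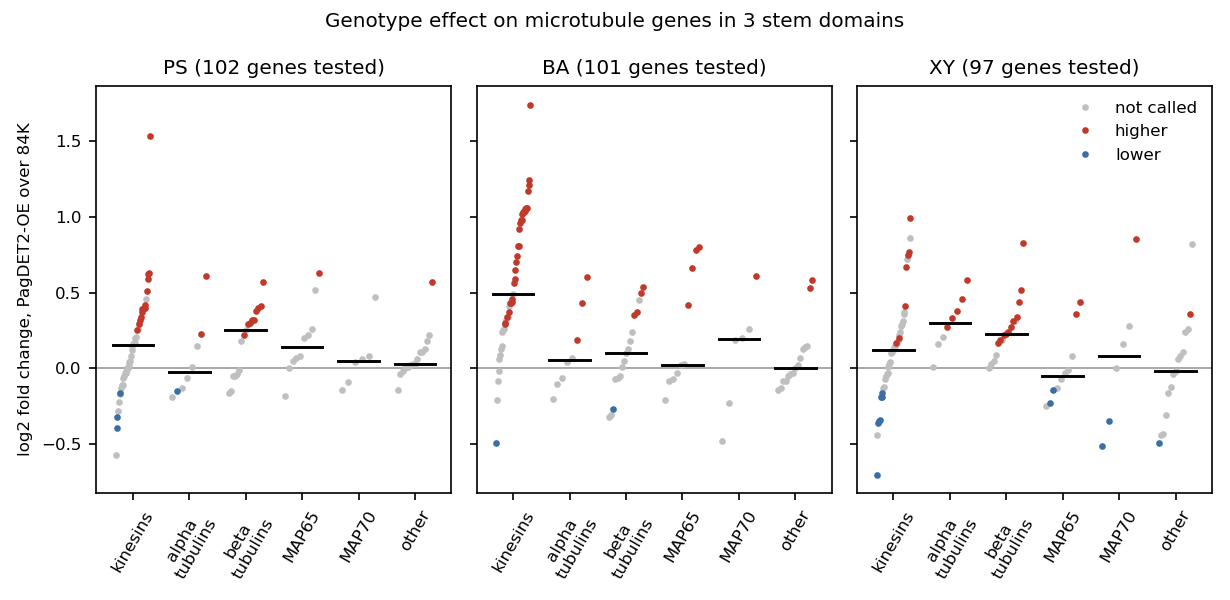
Log2 fold change of *PagDET2*-OE over 84K (y axis) for the members tested in each domain, by class (x axis). Points are genes, red where higher and blue where lower at an adjusted p of at most 0.05 by edgeR, grey where not called, and lines are medians; the kinesin median is 0.49 in BA, against 0.15 in PS and 0.12 in XY.

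In BA, 30 of 45 kinesins tested rose and 1 fell (6.19% and 5.34% of all genes tested), with a median log2 fold change of 0.49. All 11 members that were DEGs were kinesins and all were higher, where 0.892% of all genes tested were DEGs that were higher. The groups did not overlap for 56 members that were higher and 7 that were lower in *PagDET2*-OE (16.2% and 15.4% of all genes tested). Without replicate 2 of 84K, 28 members and 19 kinesins rose, and without replicate 3 of *PagDET2*-OE 4 of the kinesins were DEGs in place of 11. Without replicate 3 of both genotypes 33 kinesins rose and 7 were DEGs.

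Both *POK* genes that were tested were DEGs in BA. *POK2* (Potri.004G145800, chromosome 4, 16901232 to 16915634 of the *P. trichocarpa* v3.1 annotation) encodes a kinesin that in *Arabidopsis* helps the phragmoplast find the division site. It had 182, 181 and 267 CPM in BA of *PagDET2*-OE, against 82.6, 86.3 and 97.3 CPM in BA of 84K (log2 fold change 1.24, SE 0.19, adjusted p = 0.0161). *POK1* (Potri.010G153000, chromosome 10, 16066808 to 16079115) acts in the same step and had 78.7, 79.2 and 122 CPM in *PagDET2*-OE, against 40.5, 36.3 and 47.7 CPM in 84K (log2 fold change 1.17, SE 0.22, adjusted p = 0.0343). In both genes replicate 3 of *PagDET2*-OE was the highest library, and the other *PagDET2*-OE libraries were still above every 84K library. Both calls were lost when replicate 1 of 84K (adjusted p = 0.067 for *POK2* and 0.118 for *POK1*) or replicate 2 of 84K (0.0673 and 0.0997) was left out, with log2 fold changes of 1.07 to 1.21. The *POK1* call was also lost without replicate 3 of 84K (0.0644) and without a filter on low counts (0.054).

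*NACK1* encodes the kinesin that in tobacco and *Arabidopsis* switches on the kinase cascade that widens the phragmoplast, and 3 of its copies were tested. All of them rose in BA. Potri.T113300 had 7.18, 7.90 and 12.7 CPM in *PagDET2*-OE, against 3.33, 4.76 and 5.39 CPM in 84K (log2 fold change 1.02, SE 0.24, adjusted p = 0.019), a call lost without replicate 1 of 84K (0.0769) or replicate 2 of 84K (0.0786) and by limma (0.0694). Potri.012G054400 was the most abundant copy, with 46.6, 49.0 and 53.1 CPM against 28.0, 29.8 and 31.2 CPM (log2 fold change 0.74, SE 0.08). *KINESIN-12B*, a motor at the plus ends of phragmoplast microtubules, rose in both copies, with log2 fold changes of 0.92 (SE 0.12) for Potri.002G235500 and 0.59 (SE 0.12) for Potri.014G149000.

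Both *ATK1* copies rose in BA. *ATK1* Potri.004G031600 had 38.3, 40.2 and 50.6 CPM in BA of *PagDET2*-OE, against 21.5, 20.3 and 21.5 CPM in 84K (log2 fold change 1.03, SE 0.11, adjusted p = 4.80e-05). The *ATK1* copy Potri.011G031200 had 15.1, 14.98 and 22.3 CPM against 8.80, 9.71 and 11.1 CPM (log2 fold change 0.81, SE 0.17). Of the kinesin DEGs without a symbol, Potri.002G110600, which the annotation describes as a di-glucose binding protein with a kinesin motor, had the smallest SE. It had 36.8, 39.8 and 40.2 CPM in *PagDET2*-OE, against 18.9, 18.3 and 19.6 CPM in 84K (log2 fold change 1.04, SE 0.09, adjusted p = 9.65e-06). Potri.001G360200 was the most abundant of them, with 114, 113 and 146 CPM against 59.3, 56.2 and 66.7 CPM (log2 fold change 1.03, SE 0.11). Potri.006G082900 had 48.0, 43.3 and 58.8 CPM against 23.6, 24.1 and 24.5 CPM (log2 fold change 1.06, SE 0.11). In all 5 genes the lowest *PagDET2*-OE library was above the highest 84K library.

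**Figure D3:**
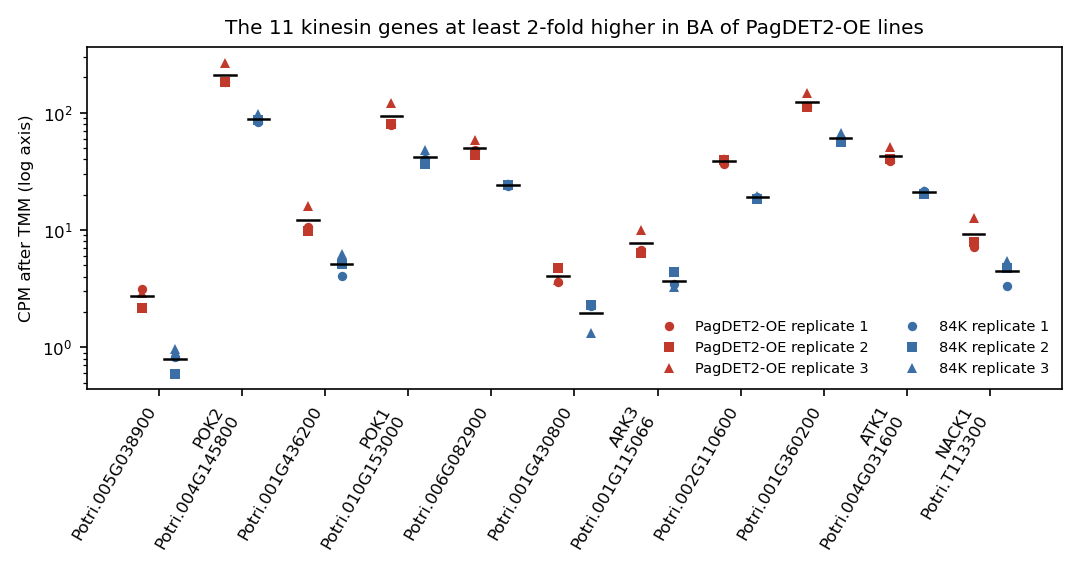
CPM after TMM (y axis, log scale) of the 11 kinesin genes that were DEGs in BA, in each library of *PagDET2*-OE lines (left, red) and 84K (right, blue); lines are means (n = 3). The groups do not overlap in any of the 11 genes, and *POK2* has the highest CPM, which is not per length, with 181 to 267 CPM in *PagDET2*-OE lines against 82.6 to 97.3 CPM in 84K.

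The largest change in BA was in a gene near the detection limit. Potri.005G038900 had 3.16, 2.15 and 2.88 CPM in *PagDET2*-OE, against 0.833, 0.595 and 0.971 CPM in 84K (log2 fold change 1.74, SE 0.32, adjusted p = 0.00334). Potri.001G436200, at 10.7, 9.75 and 15.9 CPM against 4.05, 5.15 and 6.27 CPM, had a log2 fold change of 1.21 (SE 0.21). Potri.001G430800 had 3.59, 4.72 and 3.73 CPM against 2.26, 2.28 and 1.32 CPM (log2 fold change 1.06, SE 0.26), and its call in BA was lost without replicate 2 of *PagDET2*-OE (adjusted p = 0.0931) and without replicate 3 of 84K (0.0581), and by DESeq2 (0.0989) and limma (0.0937). *ARK3* Potri.001G115066, an armadillo repeat kinesin, had 6.75, 6.36 and 9.90 CPM against 3.45, 4.36 and 3.27 CPM (log2 fold change 1.05, SE 0.22). Its gene model ends 27 bases from a further *ARK3* model, and how fragments were split between them is not known. Potri.012G058400 fell just short of the 2-fold limit, with a log2 fold change of 0.98 (SE 0.12).

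Of the 34 kinesins tested in BA that were not DEGs, 19 rose, 1 fell and 14 were not called. Of the 3 kinesins with the highest FPKM over all libraries, none passed the test there: Potri.018G079800 had a log2 fold change of 0.06 (95% interval −0.06 to 0.19), *ATK3* Potri.001G416300 of 0.25 (0.06 to 0.45, adjusted p = 0.0962) and Potri.004G161100 of 0.26 (0.04 to 0.47, adjusted p = 0.117). *KCBP* rose in both copies, with log2 fold changes of 0.44 (SE 0.10) for Potri.001G455300 and 0.29 (SE 0.07) for Potri.011G146700. The 1 kinesin that fell was Potri.007G014800, with 21.4, 23.0 and 24.9 CPM in *PagDET2*-OE, against 31.9, 33.2 and 32.3 CPM in 84K (log2 fold change −0.49, SE 0.09, adjusted p = 0.00282).

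The associated proteins that rose in BA were 7 of 27, against 6.19% of all genes tested. *MAP65-3* accounted for 3 of them: Potri.015G131400 had 47.0, 44.2 and 59.2 CPM in *PagDET2*-OE, against 27.7, 30.0 and 28.8 CPM in 84K (log2 fold change 0.80, SE 0.10, adjusted p = 0.000309). The log2 fold changes of Potri.012G129600 and Potri.014G070100 were 0.66 (SE 0.08) and 0.42 (SE 0.09). *MAP70-1* Potri.006G039200 had 90.4, 96.4 and 100.6 CPM against 61.7, 65.5 and 61.3 CPM (log2 fold change 0.61, SE 0.07, adjusted p = 8.4e-05). *MAP65-5* and 2 genes described as cell cycle regulated microtubule associated proteins made up the rest, with log2 fold changes of 0.53 to 0.78. Both *MAP65-8* copies had values near 0 in BA (0.03 and −0.03). Tubulins moved little as a group in BA: 7 of 29 rose, 1 fell, and the median log2 fold change was 0.05, with 4 tubulins higher when replicate 1 of 84K was left out. *TUA6* Potri.017G081000 rose most among them (308, 322 and 315 CPM against 215, 208 and 203 CPM), and *TUB2* Potri.001G464400 fell (298, 303 and 318 CPM against 379, 361 and 371 CPM).

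Other genes of the same processes were read from a list of mitosis and cytokinesis that holds no member. In BA 27 of 53 rose and 0 fell (36 of 53 had an unadjusted p under 0.05), with a median log2 fold change of 0.46. *CDKB2;1* Potri.005G257500, a kinase of the entry into mitosis, averaged 65.0 ± 2.89 CPM in *PagDET2*-OE and 40.4 ± 2.36 CPM in 84K (SD, n = 3 each). *KN*, the syntaxin that fuses vesicles at the new cell plate, averaged 67.1 ± 5.85 CPM in *PagDET2*-OE and 39.99 ± 5.61 CPM in 84K for its more abundant copy. Among 36 regulators of microtubules, 4 rose in BA and 0 fell (8 had an unadjusted p under 0.05). The risers were both copies of *TPX2*, a spindle assembly factor (log2 fold changes 1.03, SE 0.15, and 0.95, SE 0.15), *EDE1* (0.75, SE 0.12) and *SP1L1* (0.70, SE 0.20). In XY 3 of 49 genes of the mitosis list rose and 0 fell (11 had an unadjusted p under 0.05), and in PS 21 of 52 rose and 0 fell (30). Among all genes tested, 6.19% rose and 5.34% fell in BA, 10% and 9.34% in XY, and 8.08% and 6.90% in PS.

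Markers of other cells moved in BA as well. Of 29 genes of the secondary wall tested there, 18 fell and 1 rose, with a median log2 fold change of −0.61. Of all genes tested in BA, 5.34% fell and 6.19% rose. Over the 54 genes of that list, of which 11 had no count in BA, the sum was 822 to 891 CPM in *PagDET2*-OE and 1165 to 1268 CPM in 84K. Of 18 cambium genes 0 were called (5 had an unadjusted p under 0.05), and their sums were 2503 to 2556 CPM in *PagDET2*-OE and 2599 to 2676 CPM in 84K. The cambium sums in XY were similar, with 2448 to 2554 CPM in *PagDET2*-OE and 2572 to 2692 CPM in 84K. Of 12 phloem genes 3 rose and 1 fell. No defining marker of these 3 lists was at 0 in all of its copies. The part that a shift in the cells harvested has in the kinesin result was not tested.

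How the kinesins that rose in BA were expressed in other domains of 84K was read from a contrast that shares no library with it, PS against XY of 84K. Of 18 kinesins tested in BA that were at least 2-fold higher in PS, 17 rose in BA of *PagDET2*-OE, with a median log2 fold change of 1.02. Of all genes tested in BA, 6.19% rose and 5.34% fell. The share that rose among all genes higher in PS than in XY was not computed, so whether the pattern is particular to kinesins was not tested. Of 12 that were at least 2-fold higher in XY, 3 rose and 1 fell (median 0.20). Of the 15 others, 10 rose (median 0.37). Kinesins are not independent replicates, and libraries of PS, BA and XY may share trees, so no p is given. Library totals in place of TMM put 26 kinesins in the first set, of which 22 rose (median 0.97), and 10 in the second, of which 1 rose and 1 fell (median 0.12).

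**Figure D4:**
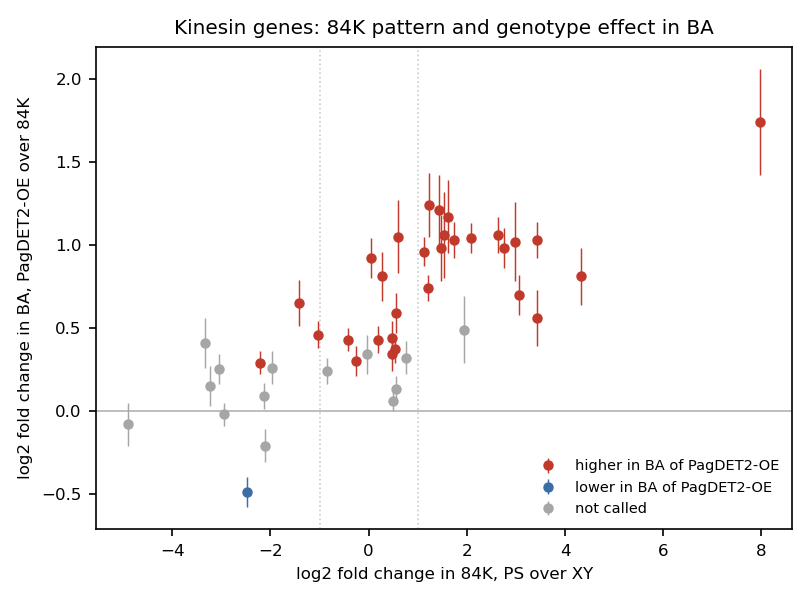
Log2 fold change in BA of *PagDET2*-OE over 84K (y axis, bars are SE) against the log2 fold change of PS over XY in 84K (x axis) for 45 kinesin genes; dotted lines mark a 2-fold difference. Right of the dotted line at 1, 17 of 18 genes are called higher in BA; left of the line at −1, 3 of 12 are.

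In XY the tubulins led. Of 29 tested, 16 rose and 1 fell (10% and 9.34% of all genes tested). Among them 5 of 8 alpha tubulins and 11 of 17 beta tubulins rose, and no alpha or beta tubulin fell. Over all members of XY the groups did not overlap for 42 that were higher and 12 that were lower (17.8% and 18.3% of all genes tested). The changes were small, with median log2 fold changes of 0.30 for alpha and 0.23 for beta tubulins. On deposited FPKM the mean of *PagDET2*-OE was above that of 84K for 7 of 8 alpha and 14 of 17 beta tubulins, and after TMM for all 8 and all 17. The 1 tubulin family gene that fell was *FTSZ2-1* Potri.004G203100, which encodes a protein of the plastid division ring and no microtubule subunit, with 18.7, 18 and 15.2 CPM in *PagDET2*-OE, against 24.8, 24.5 and 23.6 CPM in 84K (log2 fold change −0.49, SE 0.11, adjusted p = 0.00407).

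Tubulins that rose in XY included abundant and less abundant genes. *TUB6* Potri.016G033200 had 1147, 1166 and 1280 CPM in XY of *PagDET2*-OE, against 838, 877 and 932 CPM in XY of 84K (log2 fold change 0.44, SE 0.05, adjusted p = 7.61e-06). *TUA3* Potri.003G220300 had 347, 363 and 340 CPM against 259, 257.5 and 249 CPM (log2 fold change 0.46, SE 0.05, adjusted p = 2.45e-06). *TUA5* Potri.019G036000 had 229.5, 230.0 and 238 CPM against 176, 177 and 185 CPM (log2 fold change 0.38, SE 0.05). The xylem-high *TUB6* copy Potri.001G104600 had 732, 730 and 737 CPM against 617, 612 and 597 CPM (log2 fold change 0.27, SE 0.04, adjusted p = 0.00018). In none of these did the groups overlap, although the changes were 1.2-fold to 1.4-fold.

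Several of the most abundant tubulins did not pass the test in XY. *TUA2* Potri.002G111900 had a log2 fold change of 0.01 (95% interval −0.09 to 0.11), and *TUA4* Potri.009G085100 of 0.21 (0.04 to 0.38, adjusted p = 0.0914). Nor did *TUB6* Potri.006G035400, with 0.05 (−0.06 to 0.16), or *TUB2* Potri.001G272800, with 0.31 (−0.15 to 0.78). *TUB3* Potri.001G272700 rose by 0.17 (SE 0.04). The value of *TUA2* was −0.05 with library totals. Some tubulins that were low in XY had larger relative changes: *TUB8* Potri.003G125400 had 17.02, 20.8 and 22.9 CPM in *PagDET2*-OE, against 9.81, 11.96 and 12.3 CPM in 84K (log2 fold change 0.83, SE 0.14, adjusted p = 0.000366), and *TUA6* Potri.017G081000 had 36.6, 37.8 and 35.8 CPM against 27.7, 25.7 and 20.4 CPM (0.58, SE 0.11). *TUB8* Potri.009G040200 rose with 12.1, 13.4 and 15.8 CPM against 10.5, 8.997 and 9.49 CPM (0.52, SE 0.14), a call that was lost without replicate 3 of *PagDET2*-OE (adjusted p = 0.0651) and without replicate 2 of 84K (0.0806), and by DESeq2 (0.0896).

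**Figure D5:**
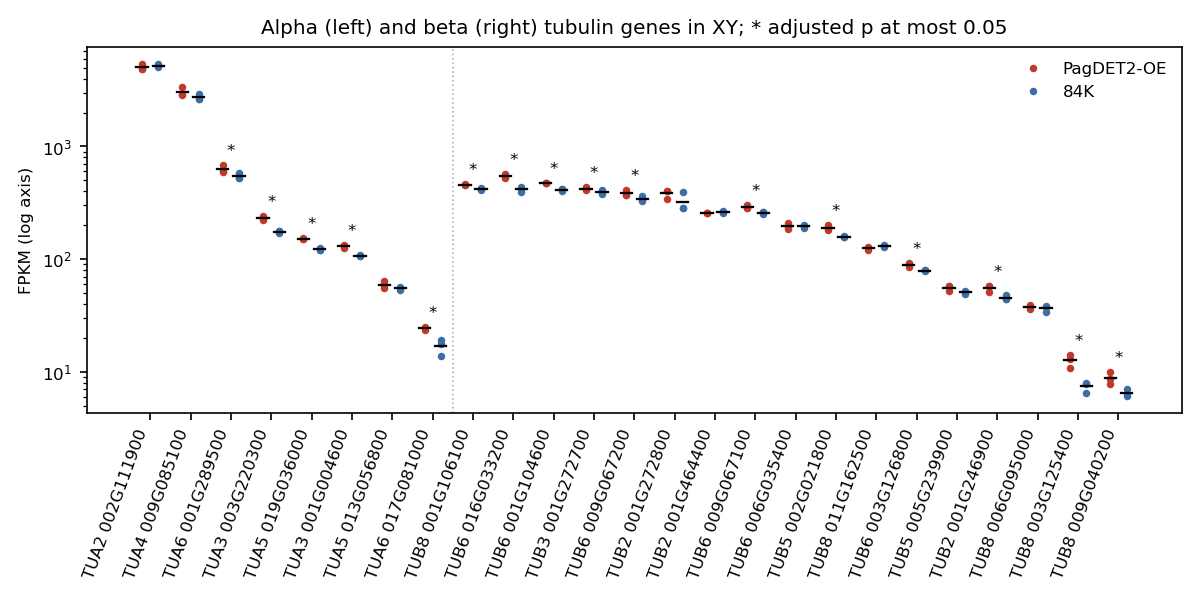
FPKM in XY (y axis, log scale) of 8 alpha and 17 beta tubulin genes (x axis, ordered by level in 84K) in each library of *PagDET2*-OE lines (left, red) and 84K (right, blue); lines are means (n = 3) and stars mark an adjusted p of at most 0.05 by edgeR. Stars stand over 5 alpha and 11 beta tubulins, and *TUA2*, the most abundant in XY of 84K with a mean of 5193 FPKM, has none.

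Kinesins went both ways in XY, with 7 of 41 higher and 7 lower (10% and 9.34% of all genes tested). Without replicate 1 of 84K, 4 kinesins were higher in XY. No member was a DEG there (1.15% of all genes tested were DEGs that were higher). Potri.005G116900 changed most, with 291, 287.5 and 297 CPM in *PagDET2*-OE, against 146.0, 146 and 147 CPM in 84K (log2 fold change 0.99, SE 0.05, adjusted p = 9.16e-11). The annotation names it only as a microtubule motor, and in 84K it was xylem-high, with a mean of 35.7 FPKM in XY and 1.99 FPKM in BA. *ARK2* Potri.010G227000 had 85.7, 82.6 and 82.8 CPM against 51.1, 48.2 and 48.3 CPM (0.77, SE 0.07), and *ATK4* Potri.013G011500 had 191, 205 and 188 CPM against 111, 127 and 128 CPM (0.67, SE 0.06). Potri.011G140000, which also rose in BA, had a log2 fold change of 0.75 (SE 0.13). Among the kinesins that fell, *KP1* Potri.011G165200 changed most, with 11.4, 13.4 and 11.8 CPM against 21.8, 21.3 and 16.4 CPM (−0.70, SE 0.14). The other *KP1* copy, Potri.001G467600, fell in XY (−0.34, SE 0.10) and rose in BA (0.43, SE 0.07), the 1 kinesin that rose in BA and fell in XY. The most abundant kinesins Potri.018G079800 and Potri.004G161100 fell slightly (−0.19, SE 0.06, and −0.16, SE 0.04), and both calls were lost under several settings. They were lost without replicate 1 of *PagDET2*-OE (adjusted p = 0.161 and 0.0733), replicate 2 of *PagDET2*-OE (0.162 and 0.0772) and replicate 2 of 84K (0.168 and 0.0694) for both, and replicate 3 of 84K (0.0894) for Potri.018G079800. With all libraries, the call of Potri.018G079800 was lost by DESeq2 (0.14), in 1 fit of 18 libraries (0.0625) and without a filter (0.0535), and that of Potri.004G161100 in 1 fit of 18 libraries (0.207).

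Of 27 associated proteins tested in XY 4 rose and 4 fell, against 10% and 9.34% of all genes tested. The MAP65 and MAP70 families each held calls in both directions. Both *MAP65-8* copies rose, with 643, 610.2 and 605.5 CPM in *PagDET2*-OE against 464, 463.5 and 444.4 CPM in 84K for Potri.001G055100 (log2 fold change 0.44, SE 0.05, adjusted p = 1.94e-06), and 971, 1029 and 1012 CPM against 741, 807 and 805 CPM for Potri.003G173300 (0.36, SE 0.05). In the same family *MAP65-1* Potri.001G356500 (−0.23, SE 0.07, adjusted p = 0.0365) and *MAP65-6* Potri.008G139700 (−0.14, SE 0.05, adjusted p = 0.0407) fell. Both *MAP70-5* copies fell, which are xylem-high in 84K. Potri.016G006900 had 336, 344 and 303 CPM in *PagDET2*-OE, against 471, 479.7 and 448 CPM in 84K (−0.51, SE 0.05, adjusted p = 2.57e-06), and Potri.006G018000 had 539, 529 and 482 CPM against 682, 667 and 627 CPM (−0.35, SE 0.05). *MAP70-1* Potri.006G039200, which is not restricted to a domain in 84K, rose with 93.8, 89.6 and 95.2 CPM against 52.6, 52.1 and 49.6 CPM (0.85, SE 0.07, adjusted p = 5.35e-08). The other 3 *MAP70-1* genes were not called in XY. In all 5 of the genes given here with their libraries the genotypes did not overlap.

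Genes of the secondary wall were also called higher in XY. Of 39 tested, 17 rose and 0 fell (22 had an unadjusted p under 0.05), with a median log2 fold change of 0.18, and their summed level was 31890 to 34490 CPM in *PagDET2*-OE and 27620 to 29120 CPM in 84K. *COBL4*, a protein of cellulose deposition, averaged 826 ± 61.5 CPM in *PagDET2*-OE and 354 ± 6.74 CPM in 84K for its most changed copy. Among 35 regulators of microtubules 8 rose and 4 fell. In XY 10% of all genes tested rose and 9.34% fell. The part of the markers in the tubulin result was not tested.

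In PS calls were made among both kinesins and tubulins. Of 46 kinesins 15 were higher and of 29 tubulins 11, against 8.08% of all genes tested. Without replicate 1 or 2 of *PagDET2*-OE 8 kinesins were higher, and without replicate 1 or 2 of 84K 6 tubulins were. The groups did not overlap for 39 members that were higher and 12 that were lower (16.8% and 16.1% of all genes tested). The only member that was a DEG was the weakly expressed kinesin Potri.001G430800, with 3.15, 2.64 and 2.81 CPM in *PagDET2*-OE, against 1.07, 1.12 and 0.747 CPM in 84K (log2 fold change 1.53, SE 0.29, adjusted p = 0.00204), where 0.471% of all genes tested were DEGs that were higher. *TUA6* Potri.017G081000 had the smallest p, with 326, 335 and 338 CPM against 216, 219 and 220.2 CPM (0.61, SE 0.05, adjusted p = 7.26e-07). *TUB2* Potri.001G246900 had 342, 355 and 359 CPM against 264, 259 and 279 CPM (0.40, SE 0.05), and *ARK2* Potri.010G227000 had 46.0, 43.4 and 40.9 CPM against 29.1, 28.4 and 26.6 CPM (0.63, SE 0.08). Both *ATK1* copies, *NACK1* Potri.012G054400 and both *KINESIN-12B* copies rose here too, with log2 fold changes of 0.25 to 0.42. Potri.013G068501 (0.62, SE 0.17), *TUB6* Potri.001G104600 (0.57, SE 0.16) and *ATK1* Potri.011G031200 (0.42, SE 0.11) lost their calls when replicate 1 of *PagDET2*-OE was left out (adjusted p = 0.0996 for the kinesin, 0.0772 for *TUB6* and 0.0932 for *ATK1*), and each did so without 2 or more of the other libraries and by DESeq2 (0.0738, 0.152 and 0.0671). Also lower were Potri.004G161100 (197, 188 and 177 CPM against 244, 240.2 and 216.5 CPM) and Potri.004G162800 (49.9, 54.0 and 48.2 CPM against 71.7, 63.2 and 64.9 CPM). *KCBP* Potri.001G455300 and *TUA3* Potri.001G004600 were the other members that fell, by 0.16 and 0.15 on the log2 scale.

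The effects in different domains were compared by interaction terms in 1 fit of all 18 libraries. These compare effects with their sign, so a higher effect can also be a weaker fall. The effect was higher in BA than in PS for 21 of 102 members and lower for 4 (4.74% and 4.53% of all genes tested). Of the 21, 17 were kinesins. Between XY and BA, 13 members had a higher effect in XY and 18 a lower one (6.90% and 6.42%), among which 15 of 46 kinesins were lower and 7 of 29 tubulins higher. Library totals gave 9 and 27, and leaving out replicate 3 of BA in *PagDET2*-OE gave 12 that were lower. Between XY and PS, 16 had a higher effect in XY and 3 a lower one (5.12% and 5.01%), and library totals gave 11 and 7. *POK2* showed the contrast of the kinesins, with an effect that was 1.06 (SE 0.17, adjusted p = 0.000475) higher in BA than in PS and 1.33 (SE 0.18) higher in BA than in XY on the log2 scale. *MAP70-1* Potri.006G039200 showed another pattern, with an effect in XY that was 0.97 (SE 0.09, adjusted p = 5.70e-08) above that in PS and one in BA that was 0.68 (SE 0.09) above it. Comparisons that share a domain share its libraries.

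Across the 3 domains 76 of 102 members were called in at least 1, and 8 rose in all 3, where 32.5% and 0.324% of all genes tested did so. These were 3 kinesins (*ARK2* Potri.010G227000, *KINESIN-12B* Potri.002G235500 and Potri.011G140000) and 5 tubulins (*TUA6* Potri.017G081000 and Potri.001G289500, *TUB2* Potri.001G246900, and *TUB8* Potri.009G040200 and Potri.003G125400). Of these calls, that of *TUA6* Potri.001G289500 in PS was lost without replicate 1 of 84K (adjusted p = 0.0998), without replicate 2 of 84K (0.0957) and by limma (0.0764), and its call in XY by limma (0.0778). The XY call of *TUB8* Potri.009G040200 was lost without replicate 3 of *PagDET2*-OE (adjusted p = 0.0651 by edgeR), without replicate 2 of 84K (0.0806) and by DESeq2 (0.0896). Calls of genes that the naming rule did not pick in a domain were not followed under the alternatives. *TUA6* Potri.017G081000 kept nearly the same ratio, with log2 fold changes of 0.61 (SE 0.05) in PS, 0.60 (SE 0.05) in BA and 0.58 (SE 0.11) in XY, while in 84K its level was 149 FPKM for PS, 141 FPKM for BA and 17.02 FPKM for XY. The gamma tubulin gene *TUBG1*, the 2 subunits *GCP2* and *GCP4* of its complex, and 4 of 5 tubulin cofactors were called in no domain. For *TUBG1* Potri.014G094900 the log2 fold changes were −0.04 in PS and in BA, and 0.06 in XY. The exception among the cofactors, the tubulin folding cofactor B gene Potri.006G041400, rose in XY (0.36, SE 0.11).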

How the data were processed

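RNA-seq libraries of 18 samples were used. Reads had been mapped by the authors to *P. trichocarpa* v3.1, which is not the hybrid studied, with HISAT2 2.0.4, and StringTie 1.3.0 gave fragment counts per gene. Counts and FPKM were deposited in 1 table. The deposited counts were the input of every test, and the FPKM, which came from a Perl script of the authors, were used for levels between genes. Strand use in counting is not given in the sources used here. Library totals were 7983668 to 12052409 counts, and bounds from 3 counts cover counting error only.

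Low genes were removed with filterByExpr (minimum count 10), TMM set the scaling factors, and all genes were tested with the robust quasi-likelihood method of edgeR (4.0.16, in R 4.3.3), adjusted by Benjamini-Hochberg: 6 libraries per domain for the genotypes, 9 for 84K, and 18 for interactions. Intervals are at the 95% level. Alternatives were DESeq2 (version 1.42.0) and its size factors, no filter, 1 fit of 18 libraries, a replicate block, limma (version 3.58.1) on log2(FPKM + 0.1), and each library left out, and, added after the data were seen, library totals and no replicate 3. The fits were tested on simulated data.

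Named genes were, per domain, up to 12 members that were DEGs or had the largest changes among calls with at least 5 CPM, and the 3 most abundant of each subgroup, with 4 in each direction per contrast of 84K and 5 per interaction. Others (copies under the same symbol, members called in all domains, members of small classes, list genes and those that fell) were chosen after their values were seen. Members and lists were chosen with earlier results of these data known. Descriptions were the authors' annotation. From the lists 19 genes of other families were taken out by description. The BA labels (cambium) and PS labels (shoot apical meristem) were matched to the domains by the study's methods. Promoter and protein sequences were not analysed here.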

Additional observations from a re-analysis of the deposited data

Results flagged for a closer look

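The genotype effect differed between domains for 15 values of named members, each by the interaction term of edgeR at an adjusted p of at most 0.05. Differences are log2 fold change of *PagDET2*-OE over 84K in the first domain minus that in the second. For BA minus PS they were 0.68 for *MAP70-1* Potri.006G039200, 0.85 for the kinesin Potri.002G110600, 1.06 for *POK2* Potri.004G145800, 0.59 for *KCBP* Potri.001G455300 and 0.56 for the kinesin Potri.004G161100. *KCBP* rose in BA and fell in PS, and Potri.004G161100 fell in PS and had a value of 0.26 in BA that was not called. For XY minus BA they were 0.71 for the kinesin Potri.007G014800, 0.62 for *TUA5* Potri.019G036000, −0.75 for *MAP65-3* Potri.012G129600, −1.33 for *POK2* and −0.73 for *KP1* Potri.001G467600. Potri.007G014800 was the 1 kinesin that fell in BA, and it rose in XY. For XY minus PS they were 0.97 for *MAP70-1*, 0.50 for *TUA3* Potri.001G004600, 0.76 for the kinesin Potri.005G116900, 0.47 for *TUA3* Potri.003G220300 and 0.51 for *TUB6* Potri.016G033200. *TUA3* Potri.001G004600 fell in PS and rose in XY. Groups of 3 libraries were too small for a test of single outlying libraries.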

How the results depend on the processing

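No called value of a named gene changed direction under the alternatives. Uncalled values near 0 did, as *TUA2* in XY, and the balance of members between XY and BA of 84K turned with library totals, at 29 higher and 41 lower in place of 35 and 31. In PS, members that rose numbered 17 by DESeq2 and 15 by limma in place of 28, with 6 kinesins by both in place of 15 (9 in 1 fit of 18 libraries), 7 tubulins by limma in place of 11, and 0 DEGs by both in place of 1. Members that fell in PS numbered 2 by DESeq2 and by limma, 10 without replicate 3 of both genotypes and 7 by library totals, in place of 4. In BA, 7 fell without replicate 3 and 5 in 1 fit of 18 libraries in place of 2, and 7 were DEGs without replicate 3 in place of 11. In XY, 7 fell by DESeq2 in place of 12, the kinesins that rose numbered 4 by limma and 11 without replicate 3 and in 1 fit of 18 libraries in place of 7, and DEGs numbered 1 by DESeq2 and without replicate 3 and 2 in 1 fit of 18 libraries in place of 0. For XY minus PS, 7 members were lower by library totals in place of 3.

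With single libraries left out, PS gave 18 to 26 members that rose, 2 to 5 that fell, 8 to 15 kinesins and 6 to 11 tubulins that rose. BA gave 28 to 40 members, 19 to 28 kinesins and 4 to 8 tubulins that rose, and 4 to 14 DEGs. XY gave 6 to 12 members that fell, 4 to 8 kinesins that rose and 0 to 1 DEGs.

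The main fits did not pair samples by replicate number. Between genotypes, correlations of deviations for libraries of the same number were −0.0084 to 0.13 over the 3 domains. In BA they were 0.0704 to 0.108, against at most 0.02 for unequal numbers. The best match carried its own number for all 6 libraries in BA, 2 in PS and 4 in XY. It also did so for all 6 between PS and BA of 84K (0.0669 to 0.12, against at most 0.0116). There the block gave 21 higher and 10 lower in place of 21 and 9. Whether libraries of the same number share an origin was not tested. With the replicate block, 35 members rose and 10 fell in PS, 52 rose and 3 fell in BA, and 31 rose and 13 fell in XY, with 34 kinesins that rose in BA and 18 tubulins in XY. With 3 libraries a group and 3 counts worth up to 0.376 CPM, changes in the weakest genes were not detectable at this depth.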
